A study of Homo sapiens with 12 samples.

Results

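The integrated stress response regulators described here are 10 genes, ATF4, ATF3, DDIT3, DDIT4, TRIB3, CHAC1, SESN2, GDF15, PPP1R15A and CEBPB, chosen by symbol because earlier results of the same RNA-seq showed changes among them. Each symbol was found in all 3 expression tables, which hold 16489, 18215 and 55744 symbols and share 15855. RNA was sequenced from 12 cultures of the triple-negative breast cancer (TNBC) cell lines HCC70 and MDA-MB468, with 1 library per condition and 24 h of treatment. The study asked how antagonists of a nuclear receptor, alone or with a statin, alter the expression program of these cells.

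HCC70 cells were given vehicle, 1.25 or 2.5 μM of XY018 (a nuclear receptor antagonist), 1.25 μM of atorvastatin (ATV, a statin that inhibits HMG-CoA reductase), or 1.25 μM of XY018 together with 1.25 μM of ATV. MDA-MB468 cells received the same 5 conditions. A further pair of MDA-MB468 cultures received vehicle or a second antagonist, GSK805, at 2.5 μM. Each line stands for a single tumor in culture. The values are FPKM, the fragments of a gene scaled by transcript length and by the mapped fragments of the library, and each of the 3 tables was normalized on its own, so every treated library was set against the vehicle of its own table. A change is the log2 of treated over vehicle FPKM, each raised by 0.1, and a gene is called higher or lower when it differs by at least 1.5-fold. Without replicates there is no test, no p-value and no estimate of the spread between cultures. The intervals given are 95% intervals on fragments estimated per gene, Clopper-Pearson for a ratio, exact Poisson for a level, and a normal approximation for a difference between ratios. They cover counting error only, at an estimated 9090000 to 10000000 fragments per HCC70 library, 18500000 to 19900000 per library of the 5 MDA-MB468 conditions with XY018 or ATV and their vehicle, and 8370000 and 8680000 in the GSK805 pair.

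The integrated stress response starts with kinases that phosphorylate the translation factor eIF2 when amino acids, protein folding, heme or double-stranded RNA signal stress. General translation then slows while the mRNA of ATF4, a bZIP transcription factor, is translated more, so that ATF4 activity can change with little change in its mRNA. ATF4 acts with CEBPB, ATF3 and CHOP, the product of DDIT3, on genes of amino acid supply, redox balance and cell death, and PPP1R15A (GADD34) closes the loop by directing a phosphatase back to eIF2. TRIB3 is a pseudokinase that binds AKT and ATF4. CHAC1 degrades glutathione, DDIT4 and SESN2 restrain mTORC1, and GDF15 is a secreted stress cytokine.

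The markers listed for basal-like epithelial breast cancer cells were EPCAM, KRT8, KRT18, KRT5, KRT14, KRT17 and EGFR. Of these, 7 of 7 were at 1 FPKM or above in 11 of the 12 libraries, and 6 of 7 in MDA-MB468 with 2.5 μM XY018. EPCAM, KRT8 and KRT18 are also expressed by luminal cells, so the count and the sum do not by themselves show basal-like character. Of the receptors that TNBC lacks or has low, ERBB2 alone stood above 2 FPKM in the vehicle libraries, at 25.7 FPKM in HCC70 and 25.6 FPKM in MDA-MB468. PGR had no entry in HCC70 and could not be judged there. In the GSK805 pair ERBB2 went from 35.2 to 57.7 FPKM and ESR1 from 1.77 to 5.67 FPKM. The summed level of the 7 markers was lower with the antagonists. It went from 1723 FPKM in vehicle to 1248 FPKM with 2.5 μM XY018 in HCC70, from 2861 to 1826 FPKM in MDA-MB468, and from 2868 to 2026 FPKM with GSK805. The summed level of markers of other cell types, most of it COL1A1, was 5.70 FPKM with vehicle and 5.54 with 2.5 μM XY018 in HCC70, 5.77 and 9.39 FPKM in MDA-MB468, and 10.4 and 17.2 FPKM in the GSK805 pair. COL3A1, a defining fibroblast gene, stayed below 0.1 FPKM in every library. The part of these markers in the results below was not tested, and in bulk RNA fewer cells with a transcript and less of it per cell cannot be told apart.

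Under vehicle the members covered a wide range. In HCC70, ATF4 led at 295 FPKM, followed by CEBPB at 65.7, TRIB3 at 39.2 and DDIT4 at 26.1 FPKM. PPP1R15A at 15.2 and SESN2 at 13.6 FPKM came next and had overlapping counting intervals, as had CHAC1, ATF3 and DDIT3 between 9.28 and 8.38 FPKM. GDF15 was lowest at 0.60 FPKM, about 7 fragments. In MDA-MB468 the order was ATF4 at 725, DDIT4 at 309, CEBPB at 176, TRIB3 at 157 and GDF15 at 25.5 FPKM. PPP1R15A at 18.0, DDIT3 at 17.5, CHAC1 at 16.4 and SESN2 at 14.4 FPKM followed, each with an interval that overlapped that of its neighbour, and ATF3 was lowest at 7.61 FPKM. In the vehicle of the GSK805 pair DDIT4, at 677 FPKM, was above ATF4 at 562 FPKM, and 6 members from PPP1R15A at 14.5 to SESN2 at 9.40 FPKM overlapped their neighbours. Levels of different tables are not on a common scale.

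**Figure D1:**
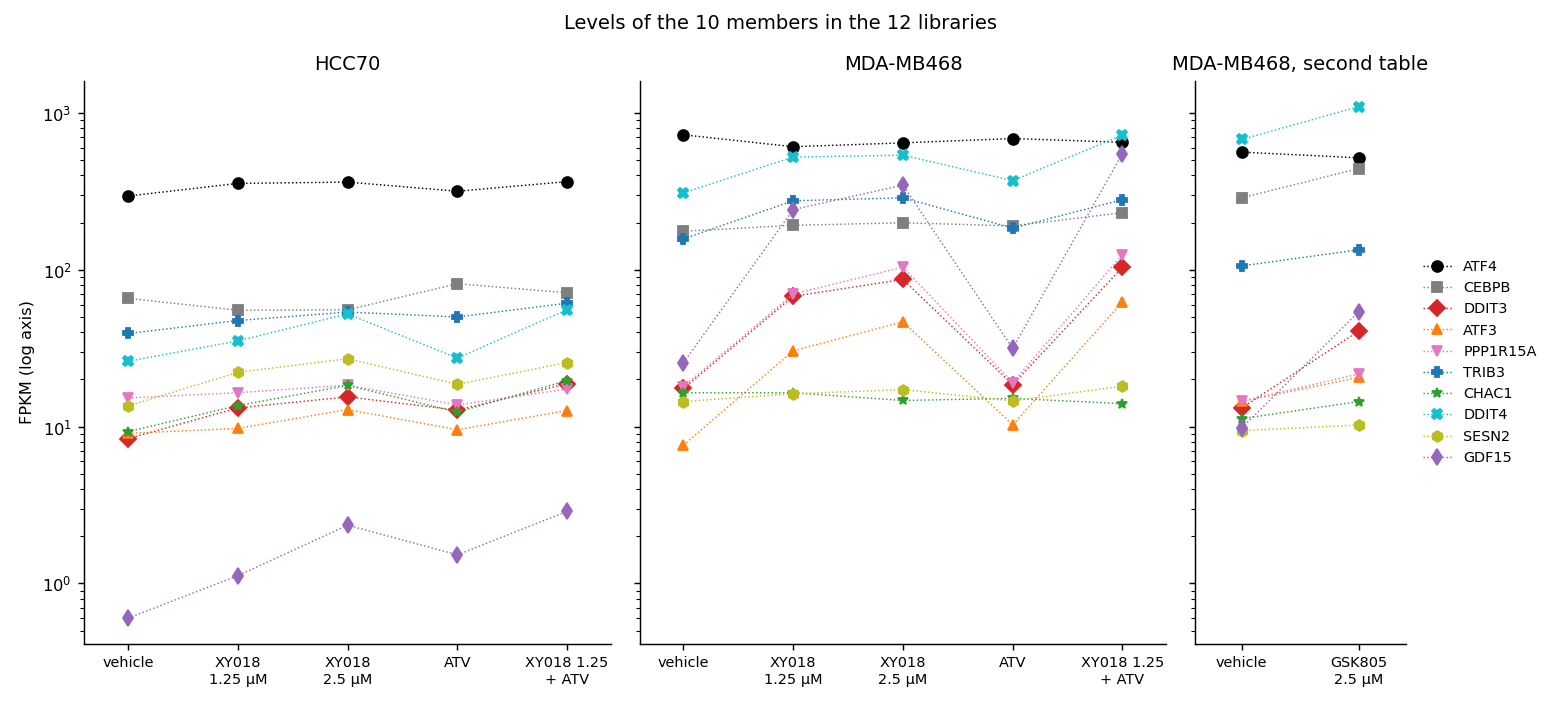
FPKM of the 10 genes (log axis) in each of the 12 libraries, in 3 panels for the 3 tables, 1 point per gene and library; dotted lines only join the points of a gene. In the MDA-MB468 panel with XY018 and ATV, GDF15, PPP1R15A, DDIT3 and ATF3 stand far above vehicle in the 3 libraries with XY018 and near it with ATV alone. ATF4 stays between 609 and 725 FPKM in that panel.

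All 10 members passed the filter of 1 FPKM in at least one library of every comparison, GDF15 in HCC70 through its treated libraries only, and none was lower by 1.5-fold in any of the 9 comparisons with vehicle. In HCC70, 3 members were higher with 1.25 μM XY018 (1.93% of all genes compared were), 5 with 2.5 μM XY018 (2.62%), 2 with ATV (2.22%) and 6 with both compounds (4.38%). In MDA-MB468, 6 members were higher with 1.25 μM XY018 (9.73%), 6 with 2.5 μM XY018 (14.1%), 0 with ATV (1.37%) and 6 with both (13.1%). With GSK805, 4 members were higher (17.6%). The shares of all genes that were lower by 1.5-fold, where no member was, came to 2.64%, 3.26%, 1.32% and 2.93% in HCC70, 8.38%, 14.5%, 0.803% and 12.2% in MDA-MB468 and 16.6% with GSK805. These contrasts were used to choose the genes and those of a line share its vehicle library, so nothing is read from the counts. The median log2 ratio of the members was 0.35, 0.69, 0.33 and 0.78 in HCC70, in the order given, 0.78, 0.83, 0.10 and 1.03 in MDA-MB468 and 0.54 with GSK805. The median over all genes at 2.5 μM was -0.02 in HCC70, 0.00 in MDA-MB468 and 0.01 with GSK805. Just inside the threshold lay DDIT3 in HCC70 with ATV, at 1.51-fold, and just outside it PPP1R15A with GSK805, at 1.49-fold, and CHAC1 in HCC70 with 1.25 μM XY018, at 1.46-fold.

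ATF4 (chr22:39915700-39918688, plus strand, GRCh37), the transcription factor at the centre of the response, was nearly level. In HCC70 it stood at 295 FPKM with vehicle, 355 and 362 with 1.25 and 2.5 μM XY018, 317 with ATV and 365 with both. In MDA-MB468 the values were 725, 609, 644, 686 and 650 FPKM in the same order, and 562 and 517 FPKM with vehicle and GSK805. The HCC70 treated libraries were thus above their vehicle and all treated MDA-MB468 libraries below theirs. At 2.5 μM the log2 ratio was 0.29 (counting interval 0.23 to 0.35) in HCC70, -0.17 (-0.20 to -0.14) in MDA-MB468 and -0.12 (-0.17 to -0.07) with GSK805. ATF4 has processed pseudogenes that can share its reads, and the counting of such reads is not given in the sources used here.

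CEBPB (chr20:48807367-48809205, plus strand) encodes a bZIP partner of ATF4 and CHOP. Its level in HCC70 was 65.7 FPKM with vehicle, 55.2 and 55.5 with the low and high dose of XY018, 81.5 with ATV and 71.3 with both. In MDA-MB468 it was 176, 192, 199, 190 and 231 FPKM, and it went from 287 to 442 FPKM with GSK805. It passed the threshold only with GSK805, by 1.54-fold. A stretch of 669 bases is shared with the antisense gene CEBPB-AS1 on the other strand, and the library kit is not stated to keep strand.

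DDIT3 (chr12:57910371-57915520, minus strand), which encodes CHOP, was called in all comparisons with an antagonist. Its level in HCC70 was 8.38 FPKM with vehicle, 13.2 and 15.5 with 1.25 and 2.5 μM XY018, 12.7 with ATV and 18.8 with both. In MDA-MB468 the values were 17.5, 67.7, 86.7, 18.5 and 104 FPKM, and in the GSK805 pair 13.1 and 40.7 FPKM. The 3 MDA-MB468 libraries with XY018 were far above vehicle, and the ATV library was level with it. At 2.5 μM this gave 1.83-fold in HCC70, 4.93-fold in MDA-MB468 and 3.08-fold with GSK805. DDIT3 overlaps other annotated genes along its length. MARS, which encodes the methionyl-tRNA synthetase, and MBD6 share 982 and 1028 bases with it on the opposite strand, and the protein-coding ENSG00000285133 and the microRNA gene MIR616 share 2769 and 97 bases on its own strand. The part of these genes in the DDIT3 values was not tested. MARS went from 63.9 to 83.6 FPKM in HCC70 and from 147 to 138 FPKM in MDA-MB468 at 2.5 μM XY018, and from 665 to 562 FPKM with GSK805.

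ATF3 (chr1:212738676-212794119, plus strand), an early-response bZIP factor, separated the lines. In HCC70 it was 9.05 FPKM with vehicle, 9.73 and 12.8 with XY018, 9.54 with ATV and 12.7 with both. In MDA-MB468 it was 7.61, 30.4, 46.6, 10.3 and 62.3 FPKM, and in the GSK805 pair 14.5 and 20.6 FPKM. No HCC70 library reached 1.5-fold, whereas the change with 2.5 μM XY018 in MDA-MB468 was 6.05-fold. With GSK805 it was 1.42-fold.

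PPP1R15A (chr19:49375469-49379316, plus strand), the stress-induced subunit that returns phosphatase to eIF2, showed the same division. Its HCC70 values lay between 13.7 and 18.4 FPKM in all 5 libraries. In MDA-MB468 it was 18.0 FPKM with vehicle, 70.0 and 104 with the XY018 doses, 19.1 with ATV and 125 with both. In the GSK805 pair it was 14.5 and 21.7 FPKM. The XY018 fold at 2.5 μM was 5.75 in MDA-MB468 and 1.20 in HCC70. TRIB3 (chr20:343479-378203, plus strand) went from 39.2 FPKM to 47.4, 53.7, 49.98 and 61.2 in HCC70, from 157 to 275, 287, 184 and 280 in MDA-MB468, and from 106 to 134 with GSK805. It was called with both compounds in HCC70, at 1.56-fold, and in the MDA-MB468 libraries that had XY018, at 1.75 to 1.83-fold.

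CHAC1 (chr15:41245160-41248710, plus strand), the glutathione-degrading enzyme, and SESN2 (chr1:28586029-28609002, plus strand), a leucine-sensing regulator of mTORC1, had the opposite division. CHAC1 was 9.28 FPKM with vehicle in HCC70, 13.6 and 18.3 with XY018, 12.4 with ATV and 19.7 with both, but lay between 13.99 and 16.4 FPKM in all 5 MDA-MB468 libraries. SESN2 was 13.6 FPKM with vehicle in HCC70, 22.2 and 27.1 with XY018, 18.6 with ATV and 25.6 with both, and between 14.4 and 18.1 FPKM in MDA-MB468. The higher XY018 dose thus gave 1.96-fold for CHAC1 and 1.99-fold for SESN2 in HCC70, and 0.89-fold and 1.19-fold in MDA-MB468. With GSK805 CHAC1 went from 11.2 to 14.4 FPKM and SESN2 from 9.40 to 10.2 FPKM, neither past the threshold.

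DDIT4 (chr10:74033678-74035794, plus strand), also known as REDD1, was the member whose change with the antagonists was most alike in size in the 2 lines. In HCC70 it was 26.1 FPKM with vehicle, 35.2 and 52.3 with XY018, 27.3 with ATV and 55.6 with both. In MDA-MB468 it was 309, 523, 538, 370 and 722 FPKM, and 677 and 1097 FPKM in the GSK805 pair. The fold at 2.5 μM was 2.0, 1.74 and 1.62 in that order of comparisons.

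GDF15 (chr19:18485541-18499986, plus strand) had the largest fold of the members in MDA-MB468 with 2.5 μM XY018 and with GSK805. In MDA-MB468 it was 25.5 FPKM with vehicle, 242 and 346 with the XY018 doses, 31.5 with ATV and 551 with both. That is 13.5-fold at 2.5 μM, the 7th highest ratio of 11919 genes, and 21.5-fold with both compounds, the highest ratio of 11906 genes. In HCC70 it was 0.60, 1.12, 2.35, 1.52 and 2.88 FPKM, which is about 7, 12, 28, 18 and 34 fragments, so the 3.50-fold of the higher dose has a counting interval of 0.72 to 3.39 on the log2 scale, and those of the lower dose (-0.60 to 2.45) and of ATV (-0.01 to 2.81) include 0. The interval of the higher dose holds the log2 ratios of DDIT4, SESN2, CHAC1 and DDIT3, so the order of these 5 in HCC70 is not resolved. With 1 FPKM added in place of 0.1, the log2 ratio of GDF15 in HCC70 was 1.07 in place of 1.81 at the higher dose. It was 1.28 in place of 2.09 with both compounds and 0.66 in place of 1.21 with ATV. At the lower dose it was 0.41 in place of 0.80, which is below 1.5-fold. With GSK805 GDF15 went from 9.77 to 54.1 FPKM, 5.49-fold.

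**Figure D2:**
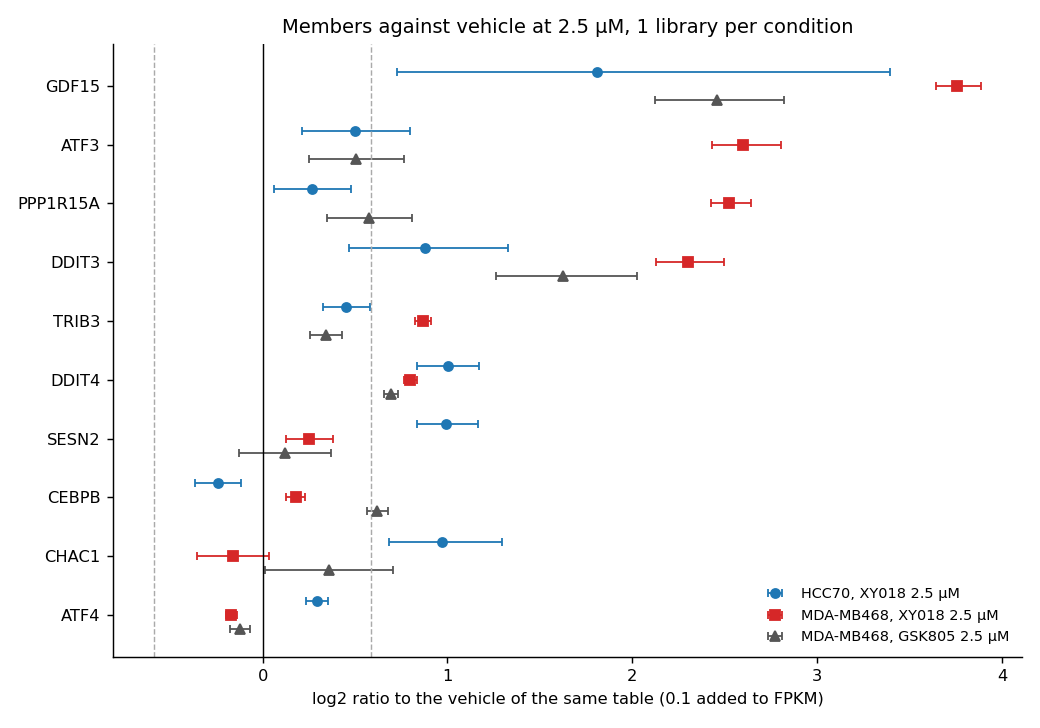
Log2 ratio to the vehicle of the same table (0.1 added) of the 10 genes at 2.5 μM, for XY018 in HCC70 (circles) and MDA-MB468 (squares) and for GSK805 in MDA-MB468 (triangles); bars are 95% counting intervals and dashed lines mark 1.5-fold. GDF15, ATF3, PPP1R15A and DDIT3 lie furthest right with XY018 in MDA-MB468, while CHAC1 and SESN2 are further right in HCC70.

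Setting the lines side by side for 2.5 μM XY018, the log2 ratio in MDA-MB468 minus that in HCC70 was 2.26 for PPP1R15A (counting interval 2.02 to 2.49), 2.10 for ATF3 (1.76 to 2.44), 1.95 for GDF15 (0.75 to 3.15) and 1.43 for DDIT3 (0.98 to 1.88). It was 0.42 for both TRIB3 and CEBPB. The difference had the other sign for CHAC1 at -1.13 (-1.49 to -0.78), SESN2 at -0.74 (-0.95 to -0.54), ATF4 at -0.46 (-0.53 to -0.40) and DDIT4 at -0.20 (-0.37 to -0.04). The counting interval lay above 0 for 6 members, as for 30.5% of all genes compared, and below 0 for 4, as for 29.5%. With ATV alone it lay above 0 for 1 member (13.2% of genes) and below 0 for 5 (14.1%). Variation between cultures is not part of these intervals.

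The 2 antagonists were given to MDA-MB468 at the same dose and for the same time, but have separate vehicles in separately normalized tables. Compound and table therefore cannot be told apart. The counting intervals of XY018 and GSK805 overlapped for ATF4, CHAC1 and SESN2 and were apart for the other 7 members. XY018 gave the larger log2 ratio for ATF3 (2.60 against 0.50), PPP1R15A (2.52 against 0.58), GDF15 (3.76 against 2.46), DDIT3 (2.30 against 1.62), TRIB3 (0.87 against 0.34) and DDIT4 (0.80 against 0.70). GSK805 gave the larger one for CEBPB (0.62 against 0.18). ATF3 and PPP1R15A, next to the top with XY018, were thus below the threshold with GSK805.

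Few members differed by 1.5-fold between 1.25 and 2.5 μM XY018. In HCC70 only GDF15 was higher by 1.5-fold between the doses, at 2.01-fold (1.17% of genes were), and DDIT4 followed at 1.49-fold. In MDA-MB468 only ATF3 was, at 1.53-fold (1.03%), followed by PPP1R15A at 1.48-fold and GDF15 at 1.43-fold. The counting interval lay above 0 for 6 members in HCC70 (8.31% of genes) and 8 in MDA-MB468 (17.3%), and for CHAC1 in MDA-MB468 the interval of the dose step was -0.36 to 0.03. No member was lower at the higher dose by 1.5-fold, as 1.36% of genes were in HCC70 and 1.73% in MDA-MB468.

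In MDA-MB468 the combination of 1.25 μM XY018 with ATV stood above either compound alone for several members. Against XY018 alone, 4 members were higher in the combination, GDF15 at 2.28-fold, ATF3 at 2.05-fold, PPP1R15A at 1.79-fold and DDIT3 at 1.53-fold (2.1% of genes), although ATV alone moved these 4 by 1.06 to 1.34-fold. Against ATV alone, 6 were higher (11.7%). In HCC70, GDF15 and DDIT4 were higher than with XY018 alone, at 2.44 and 1.58-fold (3.75%), and DDIT4, GDF15 and CHAC1 were higher than with ATV alone (2.73%). No member was lower by 1.5-fold in the combination than with XY018 alone (1.96% of genes in HCC70 and 1.76% in MDA-MB468) or with ATV alone (2.54% and 11.1%). A further comparison, chosen after the values were seen, set the log2 ratio of the combination against the sum of those of the single compounds. In MDA-MB468 the combination exceeded the sum by 0.88 for GDF15 (counting interval 0.72 to 1.05), 0.75 for PPP1R15A (0.60 to 0.90), 0.61 for ATF3 (0.37 to 0.85) and 0.54 for DDIT3 (0.28 to 0.79), whereas TRIB3 was below it by a difference of -0.21 (-0.26 to -0.15). The interval lay above 0 for 7 members, as for 14.5% of all genes, and below 0 for TRIB3 only among the members, as for 18% of genes. In HCC70 the only member with an interval above 0 was DDIT4, at 0.60 (0.35 to 0.84; 7.91% of genes), and the only one below 0 was SESN2, at -0.25 (-0.47 to -0.02; 9.38%). All ratios of a line share its vehicle.

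**Figure D3:**
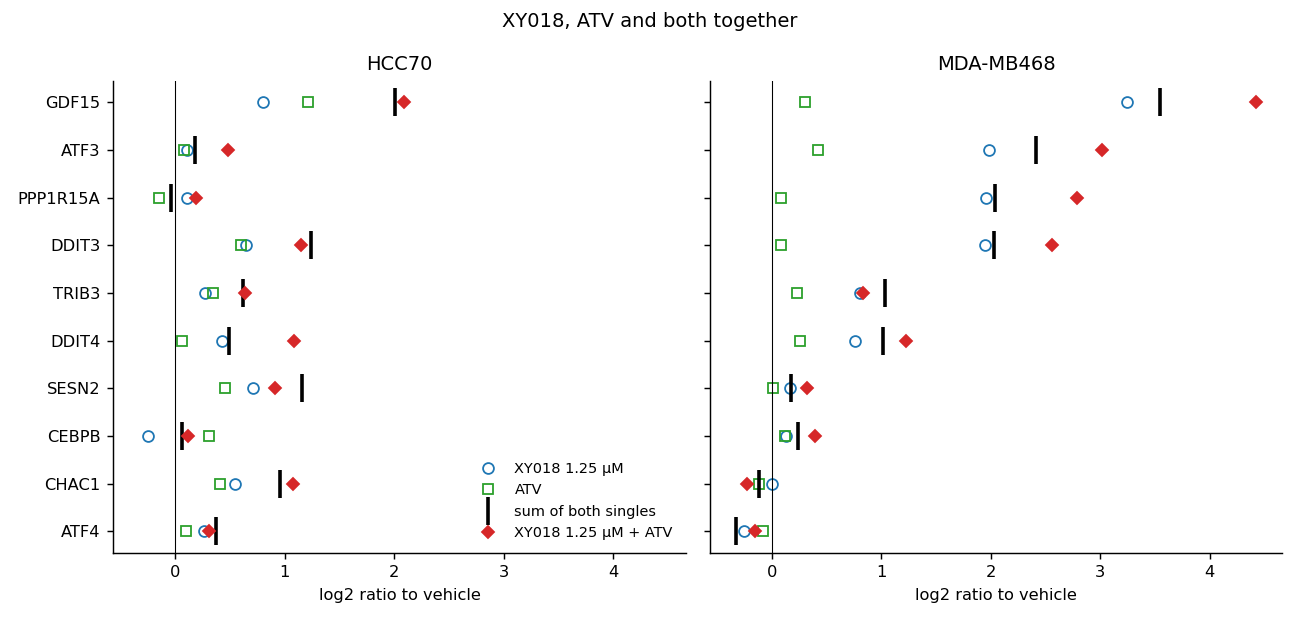
Log2 ratio to vehicle of the 10 genes with 1.25 μM XY018 (circles), ATV (squares) and both (diamonds), with the sum of both single ratios as a black bar, for HCC70 (left) and MDA-MB468 (right) on the same axis, 1 library per point. In MDA-MB468 the diamonds of GDF15, PPP1R15A, ATF3 and DDIT3 lie 0.54 to 0.88 to the right of the bar.

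Promoter sequence was examined for 3 motifs tied to this response, because the members fall into groups by line. The 10 members had 16 start sites in the RefSeq promoter table (GRCh38.p14, 250 bases before to 50 after each start). The core of the C/EBP-ATF composite element through which ATF4 acts with C/EBP partners, TGATGNAA on either strand, was found in 1 window each of ATF3 and CHAC1 and in 3.62% of 35116 promoters. The cAMP response element TGACGTCA, a palindrome that many ATF and CREB dimers bind, was found in PPP1R15A and in 1.85% of promoters. The ER stress element, CCAAT and CCACG at a spacing of 9 bases, read on both strands, was in none of the 16 windows and in 0.0769% of promoters. The 250 bases before the start of these 3 genes, shown because they hold a match and their log2 ratios differ by more than 1 between the lines, are given 5′ to 3′ on the plus strand of GRCh38.p14, with the match in capitals: CHAC1 at chr15:40953221-40953470, where the match reads on the reverse strand and starts 209 bases before the start site, PPP1R15A at chr19:48872171-48872420, where it lies 58 bases before, and ATF3 at chr1:212565157-212565406, where it lies 191 bases before.
CHAC1: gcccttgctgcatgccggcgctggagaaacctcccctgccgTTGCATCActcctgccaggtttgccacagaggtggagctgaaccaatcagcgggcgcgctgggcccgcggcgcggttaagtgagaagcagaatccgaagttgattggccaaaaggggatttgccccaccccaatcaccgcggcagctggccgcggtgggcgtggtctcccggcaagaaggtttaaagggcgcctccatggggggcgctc
PPP1R15A: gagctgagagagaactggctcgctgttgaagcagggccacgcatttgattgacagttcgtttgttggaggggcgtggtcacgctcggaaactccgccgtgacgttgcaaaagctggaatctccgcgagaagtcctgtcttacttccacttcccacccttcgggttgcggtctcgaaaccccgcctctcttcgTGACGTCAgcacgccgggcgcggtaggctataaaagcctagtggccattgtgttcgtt
ATF3: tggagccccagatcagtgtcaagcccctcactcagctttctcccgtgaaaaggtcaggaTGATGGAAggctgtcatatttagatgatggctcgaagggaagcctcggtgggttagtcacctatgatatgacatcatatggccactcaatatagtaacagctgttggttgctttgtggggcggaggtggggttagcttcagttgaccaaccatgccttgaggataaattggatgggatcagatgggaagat
CHAC1, with the composite core, was called in HCC70 and not in MDA-MB468, ATF3, with the same core before one of its starts, in MDA-MB468 and not in HCC70, and PPP1R15A, with the cAMP response element, in MDA-MB468 only, all 3 with 2.5 μM XY018. DDIT3, GDF15, DDIT4, SESN2, TRIB3, CEBPB and ATF4 had no match in these windows. A match is a string of letters and says nothing of binding in these cells. Only exact strings were sought, so the lack of a match does not show that an element is absent. The DDIT3 windows hold CCAAT and CCACT at a spacing of 9 bases, which differs from the ER stress element searched for in 1 base.

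Genes with a pattern like that of DDIT3 were sought over the 9 log2 ratios, among the 7579 genes that reached 5 FPKM in some library of each table, by the root mean square difference. The closest were the transcription factor KLF4 (0.40), HERPUD1 (0.40), a component of ER-associated degradation, ODF3B (0.42), the autophagy receptor SQSTM1 (0.42) and the uridine phosphorylase UPP1 (0.48). SQSTM1 stood at 182 FPKM with vehicle in MDA-MB468, 617 and 858 with XY018, 197 with ATV and 973 with both, and at 120 and 179 FPKM with vehicle and 2.5 μM XY018 in HCC70. Of the members, ATF3 ranked 9th and PPP1R15A 15th in likeness to DDIT3, DDIT4 was 66th and ATF4 was 4274th. GDF15 was not ranked, being below 5 FPKM in HCC70. The 9 ratios come from 3 vehicles and the likeness is a description.

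The wider pathway was followed in 8 lists of 166 genes. The lists were drawn up with earlier results of these data known. At 2.5 μM XY018, 19 of 162 genes compared were higher and 1 lower in HCC70, where 2.62% of all genes were higher and 3.26% lower, and 41 of 163 were higher and 10 lower in MDA-MB468, where 14.1% of all genes were higher and 14.5% lower. With GSK805, 24 of 163 were higher and 5 lower, against 17.6% and 16.6% of all genes. In the naming that follows, list genes beyond those of the naming rule were named after their values were seen.

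Of 22 genes for the kinases and machinery of eIF2, 0 were called in HCC70 at 2.5 μM XY018, where 2.62% of all genes were higher and 3.26% lower. The mitochondrial protease OMA1 had the largest ratio of the list there, at 12.3 and 8.90 FPKM (-0.46, counting interval -0.76 to -0.16). In MDA-MB468 EIF2AK3, which encodes the ER stress kinase PERK, was 5.90 FPKM with vehicle and 17 with 2.5 μM XY018, a log2 ratio of 1.51. PPP1R15B, the constitutive counterpart of PPP1R15A, went from 14.7 to 25.8 FPKM (0.80), and EIF2AK2, the double-stranded RNA kinase PKR, from 16.1 to 9.78 FPKM (-0.71). DNAJC3 and EIF2A were also higher, which made 4 higher and 1 lower of 22, against 14.1% and 14.5% of all genes. EIF2A was in the list, but encodes a separate initiation factor and not a subunit of eIF2. The heme-regulated kinase EIF2AK1 and the amino acid sensor EIF2AK4 (GCN2) had ratios of 0.35 and 0.22, and the substrate subunit EIF2S1 of -0.01. With GSK805 only EIF2B1, a subunit of the exchange factor of eIF2, was called in this list, at 42.9 and 27.3 FPKM (-0.65), where 17.6% of all genes were higher and 16.6% lower, and EIF2AK3 had a ratio of 0.34.

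ATF4 targets supply the cell with amino acids by synthesis and transport, and the difference between the lines in this list was not tested. In HCC70 5 of 21 were higher at 2.5 μM XY018 (2.62% of all genes were) and 0 lower, with a median of 0.44, and 10 of 22 were higher with both compounds (4.38%), with a median of 0.56. Asparagine synthetase ASNS went from 64.5 FPKM with vehicle to 98.3 and 114 with the XY018 doses, 79.6 with ATV and 135 with both. CBS, CTH, PCK2 and SLC7A5 were the other 4. In MDA-MB468 ALDH18A1 was the 1 of 22 that was higher at 2.5 μM XY018 (14.1% of all genes), and PSAT1, PSPH, SLC38A2 and SLC6A9 were the 4 that were lower (14.5%), with a median of -0.22. The serine synthesis enzyme PSAT1 went from 151 to 94.4 and 73.9 FPKM with XY018, stood at 144 with ATV and at 75.7 with both, and the amino acid transporter SLC38A2 from 68.9 to 32.3 FPKM with the higher dose (-1.09). ASNS was 104 FPKM with vehicle and 80.9 at 2.5 μM XY018 (-0.36). With GSK805 5 of 22 were higher (17.6% of all genes), with a median of 0.10, among them both chains of the cystine-glutamate exchanger, SLC7A11 from 1.80 to 4.37 FPKM (1.23) and SLC3A2 from 356 to 704 FPKM (0.98), and the cysteine-forming enzyme CTH from 5.26 to 11.8 FPKM (1.15). SLC7A11 had a ratio of 0.22 in HCC70 and -0.01 in MDA-MB468 with 2.5 μM XY018. Of the 20 cytosolic tRNA synthetases, 0 were called in HCC70 (2.62% of all genes were higher and 3.26% lower), with a median of 0.24 and the largest ratio in CARS, at 16.6 and 24.9 FPKM (0.58). In MDA-MB468 with XY018, WARS at 0.75 and SARS at 0.59 were the 2 that were higher (14.1%) and 0 were lower (14.5%). With GSK805 0 were called (17.6% and 16.6%).

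ER chaperones and targets of IRE1 and ATF6 belong to the other branches of the unfolded protein response. In MDA-MB468 11 of 20 were higher with 2.5 μM XY018 (14.1% of all genes were) and 0 lower (median 0.75), and the count was 11 also at 1.25 μM (9.73%) and 10 with both compounds (13.1%). HSPA5, the ER chaperone BiP, was 106 FPKM with vehicle, 292 and 329 with the XY018 doses, 90.8 with ATV and 464 with both. HERPUD1 was 68.0, 251, 288, 64.1 and 325 FPKM in the same order. In HCC70 2 of 20 were higher with 2.5 μM XY018 (2.62% of all genes), ERN1 at a log2 ratio of 0.74 and HERPUD1 at 0.61. The difference between the lines was not tested, and the share of all genes called also differs between them. In HCC70 HSPA5 went from 145 to 177 FPKM (0.29). With GSK805 4 were higher (17.6%) and 1 lower (16.6%), with a median of 0.05. Its highest was DNAJB9, from 11.1 to 22.3 FPKM (1.00), while HSPA5 went from 84.3 to 103 FPKM (0.28). XBP1 was not called in any of these 3 comparisons, with ratios of 0.21, -0.06 and 0.16, and spliced XBP1 is not told apart in gene-level values.

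**Figure D4:**
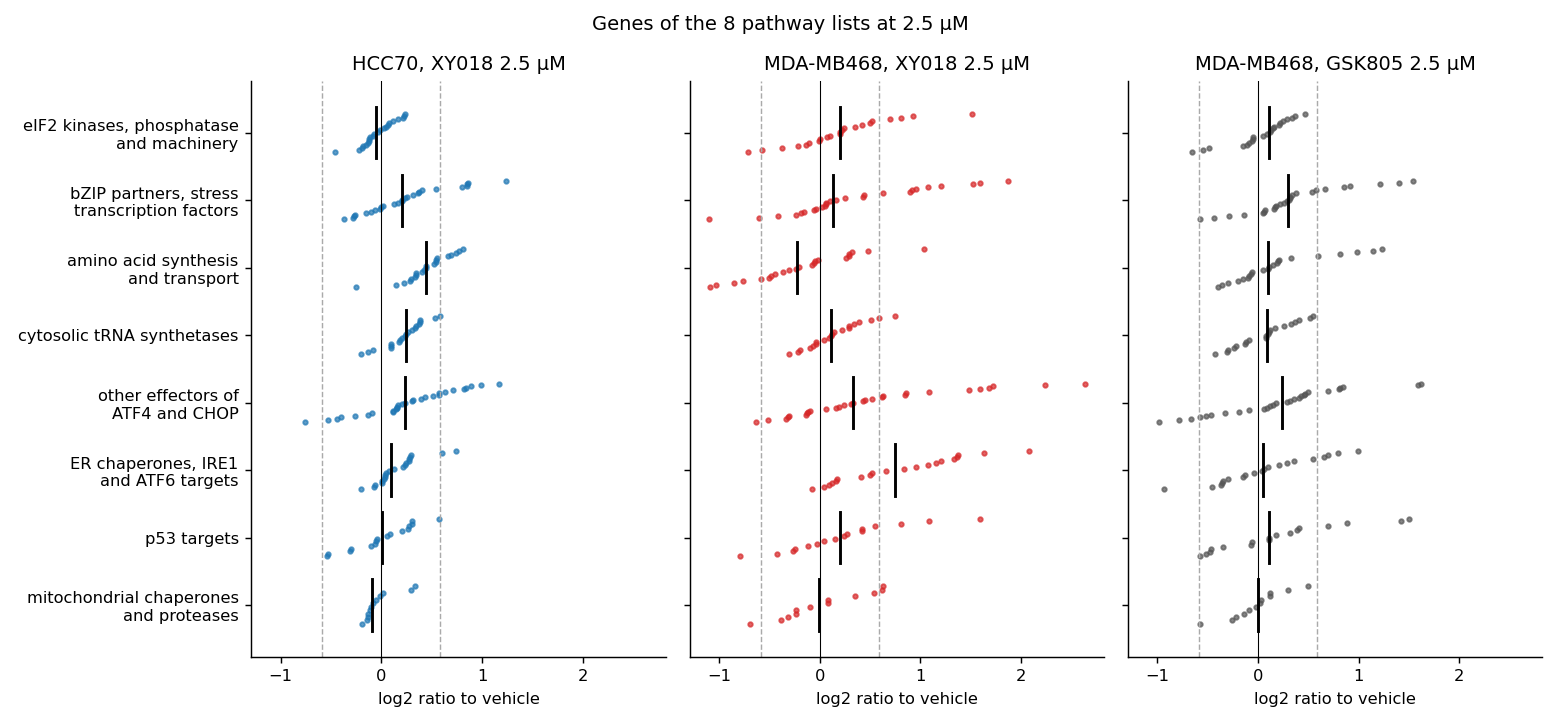
Log2 ratio to vehicle of each gene of the 8 pathway lists (points, sorted within a list) with XY018 at 2.5 μM in HCC70 and MDA-MB468 and with GSK805 at 2.5 μM in MDA-MB468; black bars are list medians and dashed lines mark 1.5-fold. The amino acid list has its median at 0.44 in HCC70 and -0.22 in MDA-MB468 with XY018, and the ER list at 0.10 and 0.75.

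Of 26 partner transcription factors, 5 were higher and 0 lower in HCC70 at 2.5 μM XY018 (2.62% and 3.26% of all genes), 9 higher and 2 lower in MDA-MB468 (14.1% and 14.5%) and 6 higher and 0 lower with GSK805 (17.6% and 16.6%). FOSL1, an AP-1 subunit, went from 3.66 to 8.74 FPKM in HCC70 (1.23). In MDA-MB468 FOSL1 was 6.04 FPKM with vehicle, 8.65 and 6.33 with the XY018 doses, 4.72 with ATV and 9.31 with both, a log2 ratio of 0.07 at the higher dose and 0.62 with both. CREBRF, a regulator of CREB3 factors, had the largest ratio of the list with GSK805, from 3.75 to 11.1 FPKM (1.54). JUN went from 14.6 to 42.2 FPKM in MDA-MB468 (1.52) and from 14.3 to 20.9 FPKM in HCC70 (0.54). CEBPG, a dimer partner of ATF4, had ratios of 0.21 in HCC70, 0.63 in MDA-MB468 and 0.66 with GSK805, and the stress regulator NUPR1 of 0.32, 0.43 and -0.13. ATF5, itself under translational control, was lower in MDA-MB468, from 8.31 to 5.44 FPKM (-0.60), and had a ratio of -0.10 in HCC70. Of the other effectors, 7 of 29 were higher and 1 lower in HCC70 (2.62% and 3.26%), 11 of 29 higher and 1 lower in MDA-MB468 (14.1% and 14.5%), and 6 of 28 higher and 3 lower with GSK805 (17.6% and 16.6%). The secreted glycoprotein STC2 went from 10.4 to 19.3 FPKM in HCC70 (0.89) and from 54.7 to 62.3 FPKM in MDA-MB468 (0.19), and the lipoprotein receptor VLDLR had ratios of 0.84 and -0.31. SQSTM1 was the highest effector in MDA-MB468 at 5 FPKM or above (2.24), and with GSK805 it was the secreted ribonuclease ANG, from 1.76 to 5.62 FPKM (1.62, counting interval 0.52 to 3.05). The death receptor gene TNFRSF10B, a CHOP target, had ratios of 0.30, 0.24 and 0.40 and was not called. NDRG1 was higher with XY018 in both lines (0.99 and 1.68) and lower with GSK805 (-0.98).

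GDF15 and SESN2 are also targets of p53. Of the p53 list, 0 of 16 were called in HCC70 (2.62% of all genes were higher and 3.26% lower), 3 were higher and 1 lower of 16 in MDA-MB468 with XY018 (14.1% and 14.5%), and 4 of 17 were higher and 0 lower with GSK805 (17.6% and 16.6%). The largest ratio with GSK805 was that of BTG2, an antiproliferative gene, from 4.03 to 11.6 FPKM, 2.83-fold. In HCC70, among genes at 5 FPKM or above, it was that of TP53I3, at 5.6 and 4.5 FPKM (-0.31, counting interval -0.78 to 0.15). MDM2, a direct p53 target, had ratios of -0.04, -0.42 and -0.35. CDKN1A went from 11.4 to 24.3 FPKM in MDA-MB468 (1.08), from 88.6 to 102 FPKM in HCC70 (0.20) and from 28.2 to 19.7 FPKM with GSK805 (-0.51), and the proapoptotic gene BBC3 from 8.70 to 26.5 FPKM in MDA-MB468 (1.59) and from 10.8 to 17.6 FPKM with GSK805 (0.70). Of the 12 mitochondrial stress chaperones and proteases, 0 were called in HCC70 (2.62% of all genes were higher and 3.26% lower). With GSK805 0 were called (17.6% and 16.6%), and 2 were higher (14.1%) and 1 lower (14.5%) in MDA-MB468 with XY018. The lower one was the chaperonin HSPE1, from 94.7 to 58.7 FPKM (-0.69), which with GSK805 stood at 169 and 113 FPKM (-0.58, just short of the threshold), and the largest ratio in HCC70 was 0.34, of the protease CLPP. HMGCS1, an enzyme of sterol synthesis, was lower in all 3 comparisons, at -2.02, -1.87 and -2.75.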

How the data were processed

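RNA was sequenced from 12 cultures, 1 library per condition, on Tru-Seq libraries. The authors mapped reads to GRCh37/hg19 with BWA and Bowtie and deposited FPKM from Cufflinks in 3 tables. Tool versions, and whether strand was kept, are not given in the sources used here. The column headers name no unit, and the values and methods fit FPKM. Python 3.11.15, numpy 2.4.6, pandas 2.3.3 and scipy 1.17.1 were used.

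Log2 ratios used a pseudocount of 0.1, a filter that kept genes reaching 1 FPKM in either library of a pair, and a threshold of 1.5-fold. Where a symbol had more than one entry, that with the highest mean was used. Depth was estimated from the spacing of low FPKM values of single-transcript genes, fragments per gene from FPKM, length and depth, and 95% intervals from those fragments without the pseudocount in their width. Shares of genes by interval cover genes with a length and at least 1 estimated fragment in every library used. The depth estimate was tried on 1 simulated library with the levels of the GSK805 vehicle. The rounded values of the other tables were not simulated for it. The calls and intervals were tried on simulated Poisson counts, the error that the intervals assume. Gene coordinates are from GENCODE mapped to GRCh37. Promoters are from RefSeq.

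The members, gene lists and naming rule were chosen with earlier results of these data known. The rule named the 10 members, 26 pathway genes, the gene of each list with the largest change at 2.5 μM among those at 5 FPKM or above, and the 5 genes most like DDIT3. Some of these genes are not reported here. Alternatives were pseudocounts of 1 and 0.01, no filter, a filter at 5 FPKM, rescaling to a median log2 ratio of 0, a 2-fold threshold, the other vehicle for GSK805, symbols in all 3 tables only, and summed entries. A chromatin immunoprecipitation data set of the study was not analysed here.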

Additional observations from a re-analysis of the deposited data

Results flagged for a closer look

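ATF4 was called in no comparison, but its log2 ratios had opposite signs in the XY018 libraries of the lines. The ratio at 2.5 μM was 0.29 in HCC70 and -0.17 in MDA-MB468, with the same signs at 1.25 μM and with both compounds. Of 21 amino acid targets of ATF4 compared in both lines, 13 were higher in all 3 XY018 libraries of HCC70 and lower in all 3 of MDA-MB468 (8.66% of 10856 genes were), 1 had the opposite signs (10.5%), 5 were higher in all XY018 libraries of both lines (12.1%) and 2 had mixed signs (53.3%). The 3 ratios of a line share its vehicle library, so their signs are not independent. Among the 5 were SLC3A2, with ratios of 0.53 and 0.32 at 2.5 μM in HCC70 and MDA-MB468, and CTH, with 0.74 and 0.26. The genes that follow were picked for their opposite signs. Their ratios at 2.5 μM in HCC70 and MDA-MB468 were 0.82 and -0.36 for ASNS, 0.55 and -1.03 for PSAT1, 0.40 and -0.30 for PHGDH, which starts serine synthesis, 0.84 and -0.31 for VLDLR, and 0.43 and -1.09 for SLC38A2. With 1 library per condition these differences were not tested.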

How the results depend on the processing

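The 9 medians, the counts of members and the counts of pathway genes were recomputed under 9 alternatives. Medians have no value at the 2-fold threshold, and the other vehicle applies to GSK805 only. Of the 356 values, 335 were rated as unmoved, which for a count meant within 1.5 times. Many of them could not move, so nothing is read from the 335. No member was lower by 1.5-fold, and a stricter threshold cannot change that. Dropping the filter or keeping only shared symbols leaves every member in place. At the 2-fold threshold 14 values moved and 22 did not. At a 2-fold threshold the members called higher with 1.25 and 2.5 μM XY018 and ATV in HCC70 numbered 0, 2 and 1. The shares of all genes were 0.46%, 0.74% and 0.45%. With GSK805 2 members were higher. At 2.5 μM XY018, pathway genes higher and lower were 2 and 0 in HCC70 (0.74% and 0.89% of all genes) and 22 and 3 in MDA-MB468. With GSK805 they were 9 and 0. Between treated libraries that threshold left 1 member for both against XY018 and 1 for both against ATV in HCC70, and 0 between doses and 2 for both against XY018 in MDA-MB468. A filter at 5 FPKM, which drops GDF15 in HCC70, gave a median of 0.50 with 2.5 μM XY018 there. It left 2 members with 1.25 μM XY018 (0.92% of all genes), 1 with ATV (1.04%), 0 between doses and 1 for both against XY018. A pseudocount of 1 left 1 member with ATV in HCC70. Rescaling gave 8 pathway genes lower with GSK805. Where no share of all genes stands beside a count in this paragraph, nothing is read from that count.

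Set against the vehicle of the other MDA-MB468 table, the GSK805 library had 84 pathway genes higher, and the log2 ratios of all 10 members left their counting intervals, ATF3 at 1.42, DDIT4 at 1.83, GDF15 at 1.08 and TRIB3 at -0.23 among them. These tables were normalized separately with different gene models. The summed FPKM was 429972 in that vehicle and 2.6e+06 in the GSK805 library, so nothing is read from the 84. Each condition has 1 library per line, and no paired analysis was run. GDF15 in HCC70 rests on few fragments, and depth is an estimate.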
